A study of Mus musculus with 4 samples.

Results

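Sonic hedgehog (Shh) and Patched 1 (Ptch1) are the ligand and the receptor of the Hedgehog pathway described here, 2 of the 328 genes on a custom Xenium in situ panel, chosen by name. Shh is a secreted signal. It binds Ptch1, which otherwise holds the pathway off, and cells that respond to the signal raise their own Ptch1, so that Ptch1 transcript is widely used as a readout of the response. In skin, Shh is best known from the epithelium of developing and growing hair follicles, where the matrix at the base of the follicle signals both to neighbouring keratinocytes and to the mesenchyme, including the dermal papilla, the cluster of specialised fibroblasts that the matrix surrounds.

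Transcripts were imaged in 5 µm sections on 4 slides, which held 17 pieces of tissue with 2000 or more cells each. The mice were Tet-On, TRE-Pitx1/Krt5-rtTA littermates, in which the Krt5 promoter, active in basal keratinocytes, drives the transactivator that turns on the transcription factor PITX1. Littermates on normal chow were Control and those on doxycycline chow were PITX1+, so that both groups carried the transgenes. The female slide of unwounded skin held Control 1, Control 2, PITX1+ 1 and PITX1+ 2. The male slide held Control 3, PITX1+ 3 and PITX1+ 4, another slide held 7 pieces of buccal mucosa, and the last held male skin on day 4 after wounding, with 1 Control wound and 2 PITX1+ wounds. The labels name only the slide, and the condition of each section was taken from its position on the slide. Slide and sex are the same variable here, and buccal tissue and its slide cannot be told apart. The unwounded sections, 3 Control, 4 PITX1+ and 7 buccal, are as many as the skins, mice and mucosae in the legend of the imaging experiment, so each may be a separate animal. The labels do not tie sections to mice, and p-values measure the spread between sections.

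Pitx1 transcripts, the check of the assigned conditions, separated the sections of the male slide and not those of the female slide. In keratinocyte-like cells Pitx1 was at 13.9 CPM (transcripts per 1000000 panel transcripts) in Control 3 and at 1068 and 866 CPM in PITX1+ 3 and PITX1+ 4. On the female slide it was at 58.8 CPM and 50.02 CPM in the sections assigned as Control and at 42.7 and 78.0 CPM in those assigned as PITX1+. Every direction given below for the female slide rests on position alone. Unwounded skin sections held 446626 to 5560941 panel transcripts in cells with at least 10 transcripts, buccal sections 134076 to 2367327. The median depth of a cell was 26 to 32 transcripts in Control, 37 to 87 in PITX1+ and 41 to 125 in buccal sections. Buccal 3 stood apart from the other buccal sections, with no keratinocyte-like cell, Pitx1 at 29.8 CPM and the fewest cells (2449).

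Over whole sections both genes were higher in PITX1+ than in Control skin. Shh was at 251, 159 and 29.1 CPM in Control 1, 2 and 3, from 184, 77 and 13 transcripts. It was at 456, 1507, 1605 and 1399 CPM in PITX1+ 1, 2, 3 and 4, from 1537, 8380, 4509 and 3993 transcripts. All 4 PITX1+ sections lay above all 3 Control sections, with PITX1+ 1 the lowest of the 4. The fitted log2 difference in Shh was 3.23 (SE 0.74, adjusted p = 0.0223, edgeR quasi-likelihood test with the slide as a covariate and Benjamini-Hochberg adjustment over 328 genes).

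Ptch1 was at 2161, 1927 and 777 CPM in Control 1, 2 and 3 and at 2626, 8547, 5448 and 4111 CPM in PITX1+ 1, 2, 3 and 4. The groups again did not overlap, although PITX1+ 1 lay closer to Control 1 than to any other PITX1+ section. The log2 difference in Ptch1 was 1.79 (SE 0.44, adjusted p = 0.0273, edgeR). Both members were thus called, in a comparison in which 20.4% of the genes tested were called, 10.4% as higher, and in which 11% of panel genes were higher without overlap between the groups. Without the slide as a covariate, the adjusted p by edgeR was 0.0821 for Shh and 0.133 for Ptch1, so neither call was kept. Without PITX1+ 2 it was 0.107 for Shh and 0.130 for Ptch1, without Control 2 it was 0.0719 for Shh, and for Ptch1 the call was also lost without Control 1, Control 2, Control 3 or PITX1+ 3 (0.0559 to 0.0925). The condition effect of the male slide exceeded that of the female slide by a log2 value of 3.00 for Shh (SE 1.00, adjusted p = 0.170, edgeR interaction term) and 0.76 for Ptch1 (SE 0.82, adjusted p = 0.645, edgeR), neither past the threshold.

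The panel's 20 negative control probes, which match no transcript, gave the background for these levels. The mean level of such a probe was 60.3, 52.3 and 28.9 CPM in Control 1, 2 and 3, and 34.7, 21.7, 10.5 and 7.97 CPM in PITX1+ 1, 2, 3 and 4. Shh in Control was thus 4.16, 3.05 and 1.01 times the mean probe, and 13.1, 69.5, 152 and 176 times in PITX1+. Ptch1 was 26.9 to 36.9 times the mean probe in Control and 75.7 to 517 times in PITX1+. No Control cell held 3 or more Shh transcripts, against 122 to 1130 cells in each PITX1+ section. The most in a cell was 2 in Control and 28 in PITX1+.

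**Figure D1:**
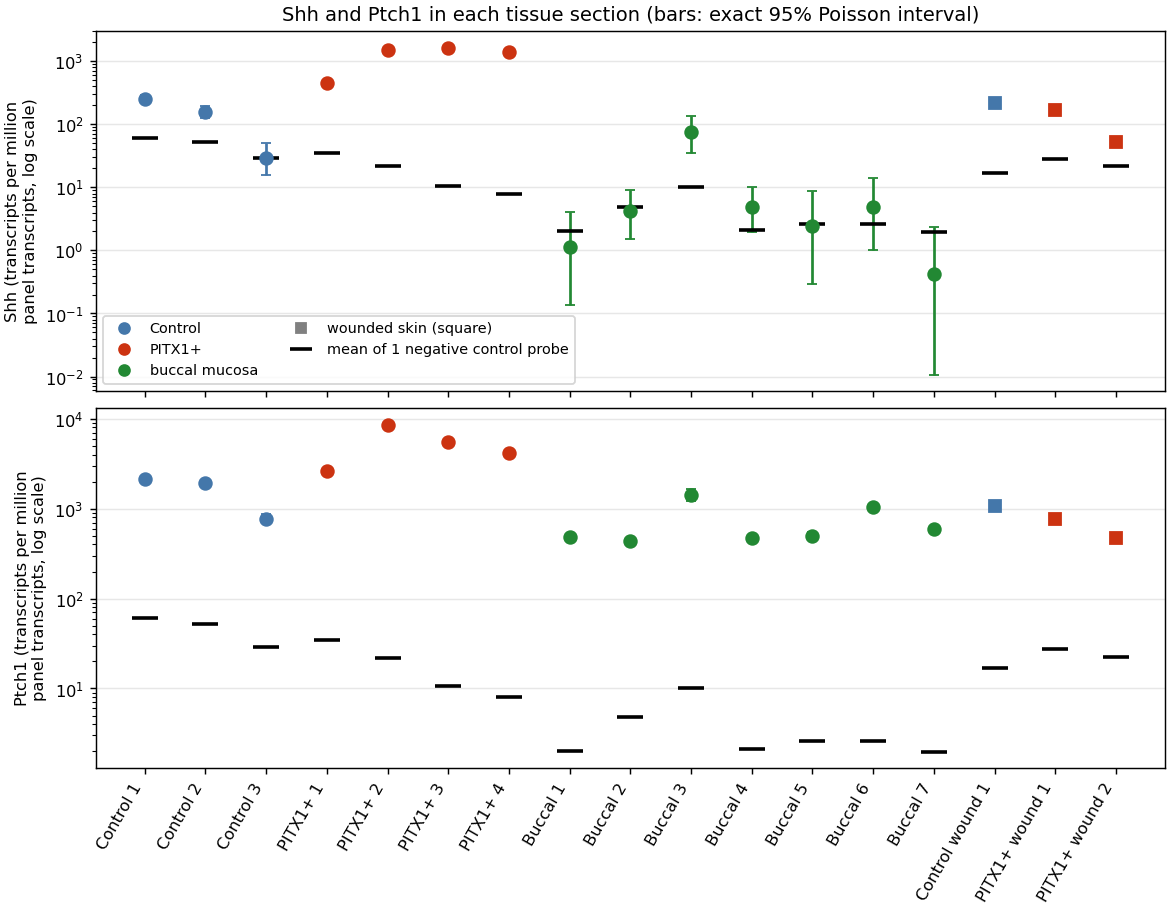
Shh (top) and Ptch1 (bottom) in each section, in CPM on a log axis; circles are unwounded skin and buccal mucosa, squares wounded skin, bars exact 95% Poisson intervals (counting error only), and black dashes the mean negative control probe. PITX1+ skin lies above Control skin for both genes, while Shh of Control 3 and of 6 buccal sections has an interval that includes the dash.

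In Control 1 and 2, the few Shh transcripts were spread over all classes of cells but the salivary-like. In Control 3, all 13 lay in keratinocyte-like, fibroblast-like and muscle and pericyte-like cells. Classes are named after the markers that led each cluster and carry "-like" for that reason. Keratinocyte-like cells held 46.7%, 49.4% and 61.5% of the Shh transcripts of Control 1, 2 and 3 and were 35.5%, 39.8% and 32.8% of the cells. Muscle and pericyte-like cells, with no known role as a source of the ligand, held 16.8%, 18.2% and 7.69%. At least 1 Shh transcript was found in 1.40%, 0.811% and 0.192% of keratinocyte-like cells, in 0.490%, 0.600% and 0 of immune-like cells and in 0.909%, 2.91% and 0 of vascular-like cells, at median depths of 25 to 47, 28 and 22 to 26 transcripts. Keratinocyte-like cells thus had the higher share in Control 1 and 3, and in Control 2 the vascular-like share was higher but rests on 3 of 103 cells. Shh in Control 1 and 2 lay above the mean probe and in Control 3 at its level, and by class of cell it was not told apart from background. Hair stem cell-like keratinocytes had the highest keratinocyte-like level in Control, at 962, 1040 and 249 CPM, but from only 5, 5 and 2 transcripts. The nucleus held 87.5% and 88.3% of the Shh transcripts of Control 1 and 2, against 43.2% and 39.1% of all panel transcripts there. In Control 3 the share was 38.5% of 13 Shh transcripts, against 39.5% of all panel transcripts. In PITX1+ sections 66.1% to 73.4% of Shh transcripts and 42.4% to 48.4% of all panel transcripts lay over the nucleus.

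In PITX1+ skin, Shh was concentrated in follicle kinds of keratinocyte-like cells. Keratinocyte-like cells held 77.7%, 94.3%, 98.4% and 98.5% of Shh transcripts in PITX1+ 1, 2, 3 and 4. The hair matrix and shaft, cycling and hair stem cell kinds together held 65.3%, 92.2%, 96.1% and 97.1% of them and were 10.2%, 20.8%, 35.8% and 25.1% of the cells. Among cells with 3 or more Shh transcripts, 99.2% to 100% were keratinocyte-like.

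The hair matrix and shaft kind, led by Dsg4, a desmosomal cadherin of the hair, and by Dlx3, a homeobox factor of hair differentiation, held Shh at 7121, 13265, 8008 and 8306 CPM. The cycling kind, led by Uhrf1, Hist1h1b and Top2a, held it at 16706, 15235, 4353 and 5696 CPM. The cycling kind was thus higher in PITX1+ 1 and 2 and the matrix and shaft kind in PITX1+ 3 and 4. The latter joins a cluster led by Dsg4 and Wnt5a, with Shh at 12872, 18294, 12001 and 10479 CPM, and one led by Krtap17-1, at 2290, 2520, 2517 and 3015 CPM. Against the former cluster alone, the cycling kind was higher only in PITX1+ 1. There it held 93 Shh transcripts and was 0.168% of the cells. Hair stem cell-like keratinocytes came next on the female slide only, with Shh at 1427 and 2227 CPM in PITX1+ 1 and 2. In PITX1+ 3 and 4 they held 149 and 29.3 CPM, within the 19.9 to 206 CPM of basal keratinocyte-like cells over the PITX1+ sections. These values compare different clusters, since one led by Cntfr and Wnt6 held 4353 and 8138 of the cells on the female slide and one led by Lgr5 and Lhx2 held 6513 and 2636 on the male slide. Basal, differentiated, activated and upper follicle kinds all had means of 88.8 to 136 CPM, at or below the level in immune-like cells (147 ± 110, SD, n = 4). The spread over sections exceeded the differences among these lower kinds.

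Ptch1 reached more kinds of cells than Shh. Its highest level in each PITX1+ section was in cycling keratinocyte-like cells, at 22633, 37392, 14459 and 12804 CPM, the first from 126 transcripts. Hair stem cell-like keratinocytes, at 11744, 33892, 8004 and 6635 CPM, were second only in PITX1+ 2. Dermal papilla-like cells held Ptch1 at 5883, 28333, 9821 and 8735 CPM. Their 10 leading genes include the Wnt inhibitors Wif1 and Dkk2, behind Col7a1 and Igfbp2, but not Crabp1, Sox2 or Wnt5a of the dermal papilla list. Col7a1, Lbh and Cntfr are also among the leading genes of the hair stem cell-like cluster led by Cntfr and Wnt6. The name thus does not mark these cells as dermal papilla. Hair matrix and shaft cells held 13899, 14258, 5784 and 5166 CPM. PITX1+ 2 was the highest section in each of these 4 kinds, and the ranges of the kinds overlapped. Fibroblast-like cells held 1878, 7547, 5317 and 3538 CPM (mean 4570), and unnamed cells had a mean of 5616 CPM (3520 to 9181). Vascular-like cells had a mean of 3045 CPM (1649 to 5375), a range that overlapped the fibroblast-like values. Sebaceous-like, muscle and pericyte-like and immune-like cells had means of 1722, 1964 and 942 CPM. Cells of 1 section share an animal and a piece of tissue, so these levels are compared by section, not by cell.

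**Figure D2:**
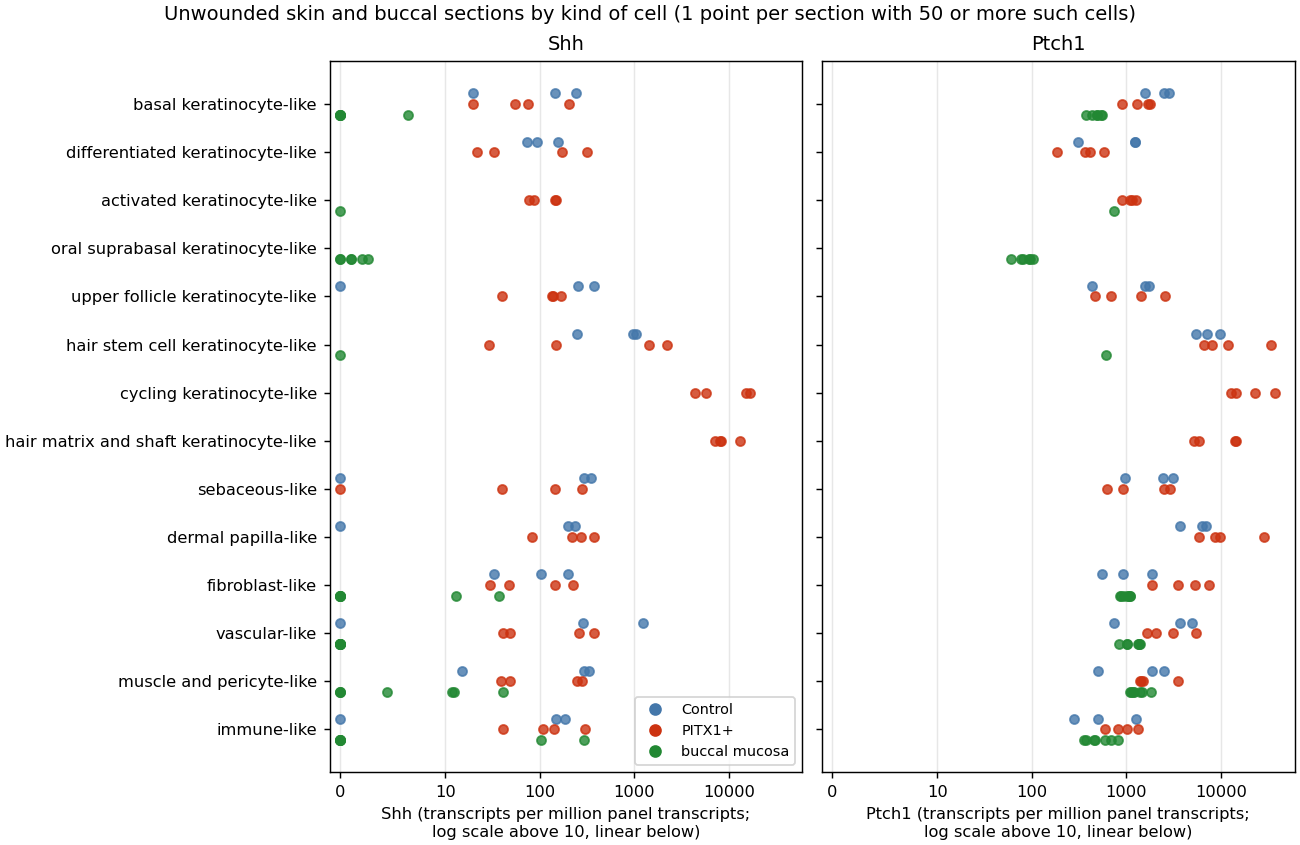
Shh (left) and Ptch1 (right) by kind of cell in CPM (linear below 10, log above), with 1 point per unwounded skin or buccal section that held 50 or more such cells. Shh stands apart in the cycling and the hair matrix and shaft kinds, which reached 50 cells only in PITX1+ sections, while Ptch1 is also high in hair stem cell-like and dermal papilla-like cells of Control.

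Summed over all keratinocyte-like cells, Shh was at 230, 146 and 55.7 CPM in Control 1, 2 and 3 and at 543, 2505, 2455 and 2900 CPM in PITX1+ 1, 2, 3 and 4. The log2 difference was 3.90 (SE 0.69, adjusted p = 0.0105, edgeR over 328 genes, of which 32.3% were called and 14% called as higher). Since Shh in Control was 1.01 to 4.16 times the mean probe over whole sections, the part of background in this difference was not tested. Keratinocyte-like Ptch1 was at 1904, 1908 and 1150 CPM in Control and at 2758, 9471, 6489 and 5978 CPM in PITX1+, a log2 difference of 2.02 (SE 0.42, adjusted p = 0.0156, edgeR). No section of PITX1+ overlapped Control for either gene, and the share of panel genes without overlap in this class was not counted. Without PITX1+ 2 the adjusted p by edgeR was 0.0533 for Shh and 0.0584 for Ptch1, and for Ptch1 it was 0.0554 and 0.0555 without Control 1 and without Control 2.

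The makeup of the keratinocyte-like class also differed between the groups. The hair matrix and shaft, cycling and hair stem cell kinds were 0.975%, 1.40% and 2.05% of all cells in Control 1, 2 and 3. In PITX1+ they were 10.2% to 35.8% of all cells. Keratinocyte-like cells as a whole were 35.5%, 39.8% and 32.8% of all cells in Control and 38.4% to 55.0% in PITX1+. The hair stem cell kind grew in share although Cd34 and Krt15 of the hair follicle stem cell list fell in keratinocyte-like cells (log2 difference -2.01 and -2.83, edgeR). In the naming of clusters Krt15 counted as a marker of the basal kind and not of the hair stem cell kind. The paper reports fewer hair follicle stem cells in PITX1+ skin. It also reports more anagen hair follicle keratinocytes and describes the enlarged follicles as stalled at peak anagen, with doxycycline begun in telogen. The part of the hair cycle in the differences between the groups was not tested. The name of the hair stem cell kind rests on leading genes such as Lgr5, Lhx2 and Sox9 and does not mark these cells as stem cells. Levels within kinds are given as values, since with 3 against 4 sections the smallest two-sided p of an exact permutation test is 0.0571 and none could pass it. Ptch1 in basal keratinocyte-like cells was at 2287 ± 627 CPM in Control (SD, n = 3) and 1415 ± 400 CPM in PITX1+ (SD, n = 4), with p = 0.171 by a two-sided exact permutation test that takes no account of the slide. Within each slide the PITX1+ sections lay below Control, at 1696 and 1763 against 2474 and 2799 CPM on the female and 897 and 1304 against 1587 CPM on the male slide. Per cell this was not so, with 0.142 and 0.202 against 0.115 and 0.108 transcripts on the female and 0.0311 and 0.0869 against 0.0472 on the male slide. The basal kind includes a cluster led by Wfdc3 and Krt15, with Lhx2 and Sostdc1 of the stem cell list among its leading genes. Follicle cells may thus be mixed into this kind, and their part in its level was not tested. In the upper follicle kind Ptch1 was at 1241 ± 707 and 1277 ± 929 CPM (p = 0.971, exact permutation test). In hair stem cell-like keratinocytes it was at 9810, 7073 and 5477 CPM in Control, against 11744, 33892, 8004 and 6635 CPM in PITX1+, so that the groups overlapped across the slides (p = 0.343, exact permutation test). Within each slide the PITX1+ sections lay above Control for the kind as a whole, but its clusters were mixed differently. On the male slide, in the cluster led by Cntfr and Wnt6, Control 3 was at 14337 CPM (24 transcripts in 71 cells), above the 9774 CPM of PITX1+ 3. In the cluster led by Lgr5 and Lhx2, Control 3 was at 3145 CPM (20 transcripts in 168 cells), below the 7925 and 6661 CPM of PITX1+ 3 and 4. Over 18 such comparisons, 9 classes or kinds for each gene, the groups overlapped in CPM across the slides in all and the lowest p by exact permutation was 0.171 (0.935 after Benjamini-Hochberg adjustment). Counted per cell, Ptch1 did not overlap in hair stem cell-like keratinocytes, at 0.184 to 0.305 transcripts in Control and 0.607 to 2.09 in PITX1+, or in dermal papilla-like cells, at 0.114 to 0.236 and 0.259 to 1.52. PITX1+ cells of these kinds also held more panel transcripts, with medians of 50 to 105 against 25 to 28 in the former and 35 to 71 against 21 to 29 in the latter. These comparisons were chosen after the data were seen, and the share of panel genes without overlap per cell was not counted. How far the makeup of the class accounts for the rise was not tested.

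Fibroblast-like Ptch1 was at 1874, 922 and 551 CPM in Control 1, 2 and 3 and at 1878, 7547, 5317 and 3538 CPM in PITX1+ 1, 2, 3 and 4. PITX1+ 1 and Control 1 were thus nearly equal, and the other 3 PITX1+ sections were higher. The class includes a cluster led by Wif1, Cdh11, Cyp26b1 and Dkk2, of which Wif1, Cdh11 and Dkk2 are on the dermal papilla list. That cluster held 3999 of 7982, 1651 of 2341 and 1389 of 2252 fibroblast-like Ptch1 transcripts in PITX1+ 2, 3 and 4, and 351 of 748 in PITX1+ 1. Its own Ptch1 level was 6367 and 6567 CPM in Control 1 and 3, 6168 CPM in PITX1+ 1 and 11140 to 25515 CPM in the other 3. It numbered 111 and 117 cells in Control 1 and 3 and 1186 to 2609 cells in the 4 PITX1+ sections, and its part in the difference was not tested. The log2 difference was 2.13 (SE 0.51, adjusted p = 0.0369, edgeR over 327 genes, of which 6.42% were called and 4.59% called as higher). That call was lost without the slide covariate (adjusted p = 0.438, edgeR), with 30 or 60 in place of 45 clusters (0.203 and 0.0511) and without Control 1, Control 3, PITX1+ 2 or PITX1+ 3 (0.0782 to 0.263). Shh in fibroblast-like cells was at 201, 102 and 32.9 CPM in Control and 223, 147, 47.7 and 29.9 CPM in PITX1+ (log2 difference 0.11, SE 0.40, adjusted p = 0.909, edgeR). In dermal papilla-like cells the log2 difference in Ptch1 was 1.59 (SE 0.50, adjusted p = 0.0674, edgeR, with 10.7% of 243 genes called). Ptch1 in sebaceous-like, vascular-like, muscle and pericyte-like and immune-like cells gave log2 differences of -0.06 to 0.69, with adjusted p of 0.478 to 0.954 by edgeR, in fits that called 12.5% of genes in sebaceous-like cells and 0 genes in the other 3 classes, where 37, 32 and 49 genes had an unadjusted p under 0.05.

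The share of cells that held the transcripts gave the same order of groups. At least 1 Shh transcript was found in 1.06%, 0.637% and 0.102% of cells in Control 1, 2 and 3 and in 1.68%, 4.19%, 3.74% and 4.40% in PITX1+ 1, 2, 3 and 4. At least 1 Ptch1 transcript was found in 7.83%, 6.66% and 2.45% of Control cells and in 10.4%, 27.3%, 22.3% and 21.1% of PITX1+ cells. Neither pair of groups overlapped, and the two-sided exact permutation test gave p = 0.0571 for each gene, the smallest value that 3 against 4 sections allow. How many panel genes were without overlap by this measure was not counted. After each cell was thinned to 20 transcripts the shares were 0.0657% to 0.508% against 0.943% to 2.44% for Shh and 1.54% to 4.32% against 5.54% to 15.2% for Ptch1, still without overlap.

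Shh cells lay in compact groups along the PITX1+ sections. A focus was defined as 5 or more cells with at least 3 Shh transcripts, each joined to the next within 30 µm. PITX1+ 1, 2, 3 and 4 held 4, 39, 24 and 20 foci, or 0.412, 3.30, 3.19 and 2.85 foci per mm2, and the Control sections held none in 6.02, 5.37 and 5.38 mm2. Since no Control cell held 3 Shh transcripts, the absence of foci there follows from that count and was not tested further. The median focus held 16.5, 21.0, 21.0 and 24.5 Shh cells and had an extent of 82.0, 71.8, 75.2 and 74.5 µm in the 4 sections, so foci differed in number more than in size. Within 150 µm of the foci's centres lay 51.2% of the Shh and 19.6% of the Ptch1 transcripts of PITX1+ 1, on 3.19% of its cells. In PITX1+ 2, 3 and 4 these shares were 88.8% to 95.6% for Shh and 52.9% to 65.1% for Ptch1, on 29.2% to 31.9% of the cells.

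**Figure D3:**
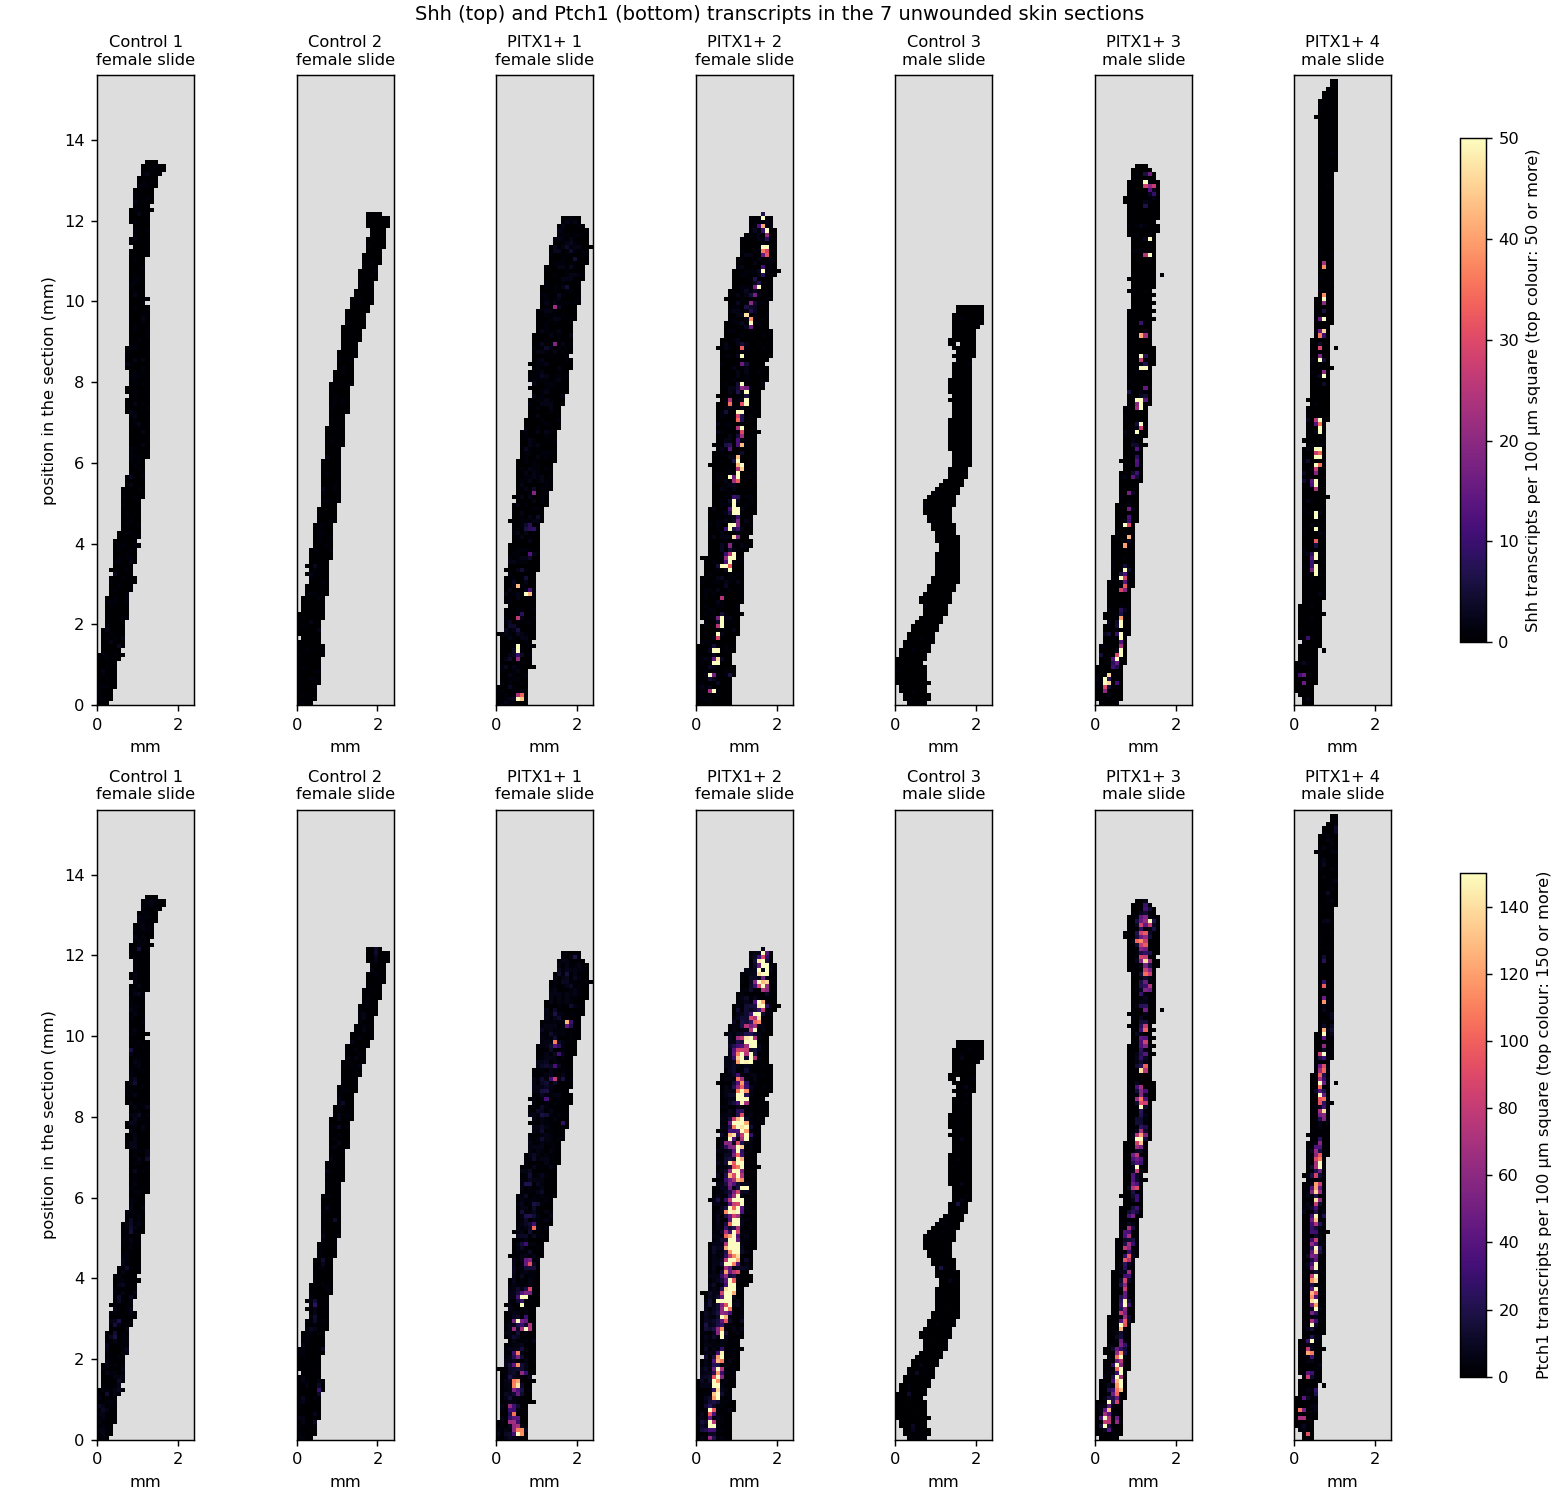
Shh (top row) and Ptch1 (bottom row) transcripts per 100 µm square in the 7 unwounded skin sections, drawn to scale in mm with grey for no tissue and the colour capped at 50 and 150 transcripts. Bright squares for Shh form a broken line along PITX1+ 2, 3 and 4 and a few points in PITX1+ 1, with Ptch1 bright in wider areas around them and both dark in the Control sections.

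Densities around a focus are a description, since foci were chosen and centred by Shh cells, which sets a high centre and a steep fall for Shh. Shh cells often held Ptch1 as well, so the choice can also raise the centre for Ptch1. No other gene was measured in this way. Shh density was 364, 483, 576 and 607 transcripts per 10000 µm2 within 25 µm of the centre in PITX1+ 1, 2, 3 and 4, and was under 50% of that at 25 to 50 µm. Ptch1 density was 278, 309, 223 and 335 transcripts per 10000 µm2 within 25 µm. It stayed above 50% of its peak up to 75 µm in PITX1+ 1 and 2 and up to 50 µm in PITX1+ 3 and 4. At 275 to 300 µm Ptch1 was at 10.1, 56.5, 14.4 and 13.97 transcripts per 10000 µm2 and Shh at 1.49, 8.84, 5.43 and 3.50. In PITX1+ 2 Ptch1 remained highest at this distance, and that section also had the most foci.

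**Figure D4:**
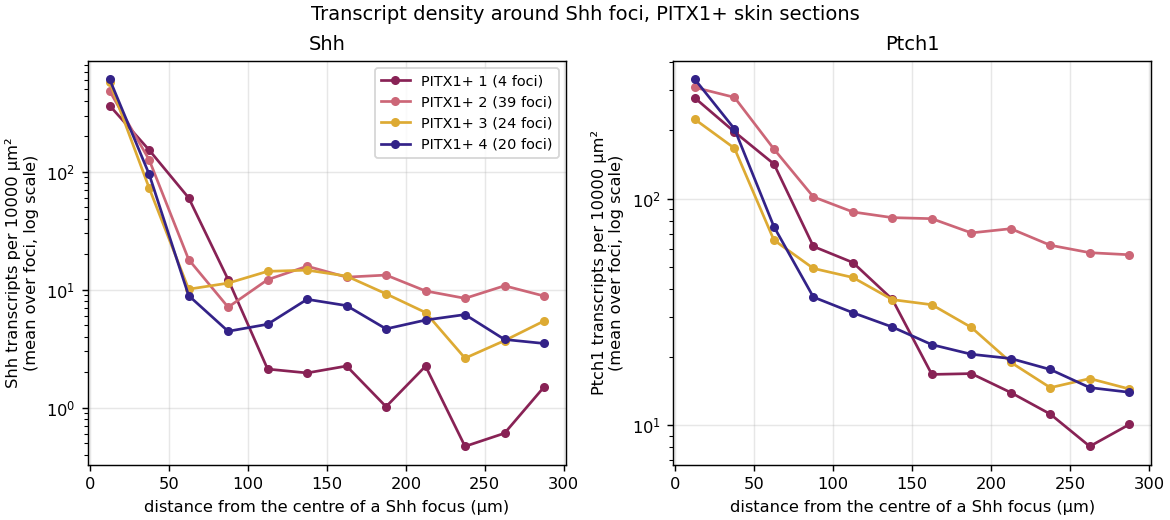
Density of Shh (left) and Ptch1 (right) transcripts against distance from the centre of a Shh focus in bands of 25 µm, as the mean over the foci of each PITX1+ skin section on a log axis. Shh falls steeply within 50 µm in all 4 sections, as the choice of foci by Shh favours, and Ptch1 levels off highest in PITX1+ 2.

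To measure whether the ligand and its receptor lay near each other, Ptch1 was compared between cells within 50 µm of a Shh cell (at least 3 Shh transcripts) and cells farther away, with the Shh cells themselves left out. Fibroblast-like cells near Shh cells held 1.00, 2.02, 1.14 and 1.36 Ptch1 transcripts per cell in PITX1+ 1, 2, 3 and 4, from 112, 1502, 717 and 775 cells. Those farther away held 0.0622, 0.321, 0.269 and 0.212. The log2 ratio, with 0.01 added to each mean, was 3.81, 2.62, 2.04 and 2.62, a mean of 2.77 ± 0.74 (SD, n = 4). Ptch1 ranked 2, 3, 8 and 7 among 327 panel genes by this ratio. Panel genes with a ratio above 0 in all 4 sections made up 33.5%, and those above 1 made up 5.49% (4.27% in keratinocyte-like cells).

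Keratinocyte-like cells near Shh cells held 1.10, 1.56, 0.938 and 1.23 Ptch1 transcripts per cell against 0.217, 0.764, 0.418 and 0.389 farther away. The log2 ratio was 2.29, 1.02, 1.15 and 1.64, a mean of 1.52 ± 0.57 (SD, n = 4). Ptch1 ranked 7, 15, 50 and 21, and 25.6% of panel genes had a ratio above 0 in all 4 sections. For both classes the two-sided exact sign-flip permutation test gave p = 0.125, the smallest value that 4 sections allow, with Ptch1 higher near Shh cells in 4 of 4 sections. The first genes by this ratio were Dsg4 in keratinocyte-like cells and Sostdc1, a BMP and Wnt antagonist of the follicle, in fibroblast-like cells, in each of the 4 sections. In CPM, near cells were also higher, at 9189 to 24087 against 2115 to 6576 CPM in keratinocyte-like and 11070 to 30754 against 1616 to 5155 CPM in fibroblast-like cells.

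Classes that do not form the follicle moved the same way. Immune-like cells near Shh cells held 0.195, 0.275, 0.159 and 0.146 Ptch1 transcripts per cell, against 0.0311, 0.0620, 0.0336 and 0.0454 farther away. Vascular-like cells held 0.244 to 0.676 near and 0.0767 to 0.178 farther away. Transcripts assigned to a neighbouring cell would add to such values, and their part was not tested. With transcripts over the nucleus only, the mean log2 ratio was 1.49 in keratinocyte-like and 2.77 in fibroblast-like cells.

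By distance, the profile differed between the classes. In fibroblast-like cells Ptch1 per cell was highest within 25 µm of a Shh cell, at 1.94, 3.35, 1.63 and 2.18, and was 0.259, 0.734, 0.382 and 0.367 at 50 to 100 µm. In dermal papilla-like cells it was 2.18, 3.24, 1.16 and 2.03 within 25 µm and 0.628, 1.83, 0.558 and 0.639 at 50 to 100 µm. Keratinocyte-like cells had a flatter course, with 1.26, 1.45, 1.01 and 1.20 within 25 µm and 0.729, 1.66, 0.718 and 0.986 at 50 to 100 µm. In PITX1+ 2 and PITX1+ 4 their highest band was at 25 to 50 µm, not the nearest. The decline did not go on at all distances. From 200 to 400 µm to beyond 400 µm, Ptch1 per cell in PITX1+ 3 went from 0.171 to 0.310 in fibroblast-like, from 0.213 to 0.424 in keratinocyte-like and from 0.492 to 0.547 in dermal papilla-like cells. In PITX1+ 4 it went from 0.243 to 0.278 in keratinocyte-like and from 0.576 to 0.882 in dermal papilla-like cells (33 and 34 cells), and from 0.211 to 0.123 in fibroblast-like cells. In PITX1+ 1 and 2 all 3 classes were lowest beyond 400 µm.

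**Figure D5:**
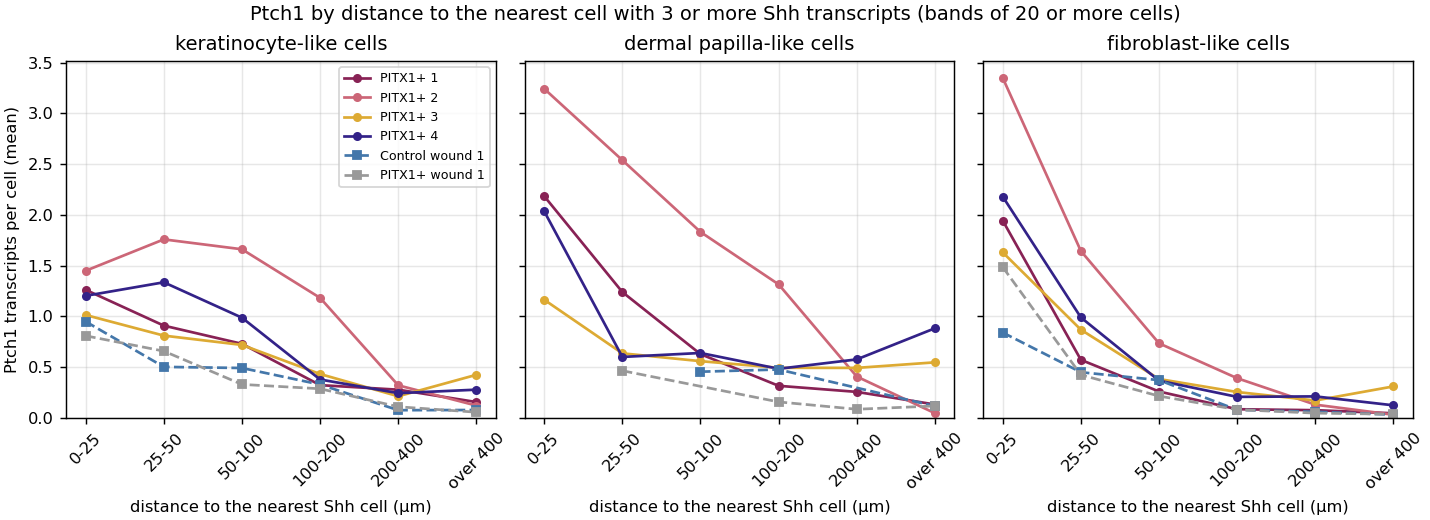
Mean Ptch1 transcripts per cell by distance to the nearest cell with at least 3 Shh transcripts, in keratinocyte-like, dermal papilla-like and fibroblast-like cells, for the 4 PITX1+ skin sections (solid lines) and 2 wound sections (dashed). Within 100 µm fibroblast-like cells show the steepest decline, from 1.63 to 3.35 in the nearest band of PITX1+ skin to 0.259 to 0.734 at 50 to 100 µm, and PITX1+ 3 is higher beyond 400 µm than at 200 to 400 µm in each class.

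Ligand and receptor were also found in the same cells. Among keratinocyte-like cells without Shh, 16.4%, 38.1%, 28.9% and 30.1% held Ptch1 in PITX1+ 1, 2, 3 and 4. Among those with 6 or more Shh transcripts the share was 75.7%, 65.0%, 58.4% and 57.4%, but the latter were also deeper cells on the male slide, with median totals of 138 and 169 against 69 and 97 transcripts. In CPM the slides parted. On the female slide Ptch1 was at 18231 and 13472 CPM in cells with 6 or more Shh transcripts against 2595 and 9095 CPM in cells without, and on the male slide at 6454 and 5678 against 6506 and 5982 CPM. Higher Ptch1 per panel transcript in the Shh cells themselves was therefore seen on the female slide and not on the male slide, a difference that was not tested.

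Other follicle genes of the panel were read beside the members, from lists chosen with earlier results of these data known. In keratinocyte-like cells, where 32.3% of all genes were called, 14% as higher and 18.3% as lower, 4 of 6 hair matrix and shaft genes rose (edgeR): Lrrc15 by a log2 value of 5.10, Dsg4 by 4.23, Dlx3 by 2.57 and Krtap17-1, a hair keratin-associated protein, by 2.03. Their list had a median of 2.30, against -0.06 over all genes tested. Of 6 hair follicle stem cell genes, Lgr5 rose by 0.73, Cd34 fell by 2.01 and Krt15 fell by 2.83, and the median was -0.45. Of 6 dermal papilla genes, Wnt5a rose by 2.34, Sox2 fell by 1.25 and the other 4 did not pass (median -0.31). Among the 8 Wnt and BMP genes of the follicle, Wnt5a was again the 1 that rose and the other 7 did not pass (median -0.23). Of 10 cell cycle genes 0 passed by edgeR, and 1 had an unadjusted p under 0.05 (median 0.56, with Uhrf1 at 1.17 and an adjusted p of 0.0614 by edgeR). The lists together had 9 calls in this class, against 4 without the slide covariate.

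In fibroblast-like cells, where 6.42% of all genes were called and 4.59% as higher, 2 of 6 dermal papilla genes rose beside Ptch1 (edgeR), Wif1 by a log2 value of 1.95 and the cadherin Cdh11 by 1.502. Both are leading genes of the cluster described above. The list's median was 0.28, against -0.03 over all genes. The lists together had 5 calls in this class, against 1 with 30 or 60 clusters and 0 without the slide covariate. Lrrc15, counted with the hair matrix list and also a known gene of activated fibroblasts, rose by 3.69, and the BMP ligand Bmp4 fell by 1.25. Of the cell cycle genes Hist1h1b rose by 1.45 and the other 9 did not pass (median 0.92).

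The genes most like each member were ranked in unwounded skin. Over 44 clusters, the profile of Shh was most like those of Dsg4 (Pearson r = 0.75), Krt18 (0.71), Krt8 (0.67), Wnt5a (0.67) and Ptch1 (0.66). That of Ptch1 was most like Lhx2 (0.76), Lbh (0.74), Wnt5a (0.73), Lama5 (0.71) and Fzd1 (0.71). Over 50 µm squares, the median r over 7 sections with Shh was highest for Wnt5a (0.73), Robo1 (0.57), Wnt6 (0.53), Wif1 (0.52) and Id3 (0.49). Over the 4 PITX1+ sections alone Robo1 (0.80) came before Wnt5a (0.74) and Wnt6 (0.68). With Ptch1 it was highest for Lama5 (0.78), Cntfr (0.72), Notch1 (0.68), Fgfr2 (0.68) and Igf1r (0.65). Shh and Ptch1 themselves had r = 0.16, 0.13 and 0.01 over the squares of Control 1, 2 and 3 and 0.58, 0.36, 0.46 and 0.56 in PITX1+ 1, 2, 3 and 4. These values describe counts that share depth and tissue density within a section, and carry no p.

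Buccal mucosa, which has no hair follicles, held 1 to 10 Shh transcripts per section. Its 7 sections gave 2, 6, 10, 7, 2, 3 and 1 transcripts, or 1.12, 4.20, 74.6, 4.92, 2.41, 4.87 and 0.422 CPM. Only Buccal 3, the section without keratinocyte-like cells, lay above 5 CPM, with 6 of its 10 transcripts in unnamed cells. Shh in Buccal 3 was 7.41 times the mean negative control probe, above the 1.01 to 4.16 times of Control, and 0.213 to 2.30 times in the other 6 sections. The edgeR fit gave a log2 difference from Control of -3.89 for whole sections (SE 1.06, adjusted p = 0.0138, with 38.1% of 328 genes called and 21.6% called as lower), which depends on counts near 0 and is no bound. In pooled counts Control held 45.7 times the Shh of buccal sections per panel transcript (exact 95% interval 31.4 to 68.5, counting error only). The negative control probes were 18.2 times higher in Control too (16.4 to 20.2), and buccal cells held more panel transcripts. In keratinocyte-like cells the Shh ratio was 129 (61.1 to 328), from 132 transcripts in Control and 7 in buccal sections, against 19.2 for the probes. The log2 difference there was -5.22 (SE 0.55, adjusted p = 1.70e-05, edgeR, with 68.4% of 323 genes called), and it passed in each of 9 fits that left out 1 section.

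Ptch1 was present in the buccal mucosa, mostly outside keratinocyte-like cells. It was at 480, 432, 1425, 470, 497, 1051 and 596 CPM in Buccal 1 to 7, overlapping Control (log2 difference -0.71, SE 0.40, adjusted p = 0.184, edgeR). Relative to the mean negative control probe it was 88.8 to 405 times, above the 26.9 to 36.9 times of Control, which gives the distance from background and not the level. Muscle and pericyte-like cells held 41.9% to 54.5% of buccal Ptch1 transcripts and were 30.8% to 42.0% of the cells in all sections but Buccal 6, where salivary-like cells, a glandular epithelium, held 78.1% and were 43.4% of the cells. The muscle and pericyte-like class is not uniform. One of its clusters, with Myh11, Acta2 and Cnn1 but also the lymphatic genes Mmrn1 and Lyve1 and the Schwann cell genes Ncmap and Drp2 among its 10 leading genes, held 143 of the 360 class transcripts in Buccal 1 and 348 of 759 in Buccal 7. Its Ptch1 level was 1440 to 3553 CPM over the 7 buccal sections, against 861 to 1105 CPM in a cluster led by Des and Abcc9. In fibroblast-like cells the level was 991 ± 96.2 CPM (SD, n = 7), within the Control range of 551 to 1874 CPM (log2 difference -0.39, SE 0.25, adjusted p = 0.245, edgeR over 285 genes, of which 33.3% were called).

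In buccal keratinocyte-like cells the Ptch1 level per panel transcript was lower than in Control skin, and so was that of the negative control probes. The Ptch1 level was 121 to 204 CPM in 6 sections, against 1150 to 1908 CPM in Control, and pooled counts gave Control over buccal 10.0 times (exact 95% interval 9.20 to 10.9, counting error only). The probes in the same cells were 19.2 times higher in Control (16.8 to 22.1). All 20 probes together were at 1014 CPM in Control and 52.7 CPM in buccal sections, against 1766 and 177 CPM for Ptch1 alone. Relative to the probes buccal Ptch1 was not lower, but that ratio gives the distance from background and not the level. The edgeR fit, on TMM-scaled libraries, gave a smaller difference (log2 difference -1.85, SE 0.22, adjusted p = 3.26e-05, edgeR over 323 genes, of which 68.4% were called and 36.8% called as lower). Counted per cell the groups came closer, at 0.0318 to 0.0598 transcripts in buccal sections and 0.116, 0.106 and 0.0396 in Control 1, 2 and 3, and overlapped. A buccal keratinocyte-like cell had a median of 124 to 215 panel transcripts, a Control one 25 to 47. By layer, the level was 480 ± 69.9 CPM in basal and 84.6 ± 15.7 CPM in oral suprabasal keratinocyte-like cells (SD, n = 6). The share of all cells with Ptch1 was 4.80% to 9.40% in buccal sections and 2.45% to 7.83% in Control, with p = 0.483 by a two-sided exact permutation test.

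In the wounds, Shh cells were few. Shh was at 221 CPM in the Control wound (exact 95% Poisson interval 199 to 246, 350 transcripts), at 168 CPM in PITX1+ wound 1 (154 to 182, 551 transcripts) and at 51.6 CPM in PITX1+ wound 2 (45.7 to 58.0, 277 transcripts). Ptch1 was at 1083 CPM (1032 to 1135), 775 CPM (745 to 806) and 467 CPM (449 to 486). Shh was 13.0, 6.04 and 2.32 times the mean negative control probe in these 3 wounds, the last below the 3.05 and 4.16 times of unwounded Control 2 and 1. With 1 Control wound there is no test, and the intervals cover counting error only. Over whole sections both genes were lower in either PITX1+ wound than in the Control wound, the opposite order to unwounded skin. By kind the order was mixed. Hair matrix and shaft cells held Shh at 1057 CPM in the Control wound and at 2431 and 4978 CPM in the PITX1+ wounds (72, 194 and 27 transcripts), and cycling cells at 2635, 1152 and 1080 CPM. Ptch1 was at 4332, 4838 and 3319 CPM in the former and 7557, 5034 and 7117 CPM in the latter. Pitx1 itself was at 53.8 CPM in the Control wound and 340 and 134 CPM in the PITX1+ wounds. On the other male slide, unwounded Control 3 had Shh at 29.1 and Ptch1 at 777 CPM, and PITX1+ 3 and 4 had Shh at 1605 and 1399 CPM. Slide and wounding cannot be told apart.

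Cells with 3 or more Shh transcripts numbered 24, 35 and 13 in the Control wound, PITX1+ wound 1 and PITX1+ wound 2, and formed 2, 2 and 1 foci. Unlike unwounded Control skin, the Control wound thus held Shh cells, and 91.7% of them were hair matrix and shaft or cycling keratinocyte-like cells. These 2 kinds and the hair stem cell kind were 10.4%, 9.02% and 2.84% of the cells in the 3 wounds. Shh outside keratinocyte-like cells was more common than in unwounded PITX1+ skin, with 34.3% of the transcripts of PITX1+ wound 1 in unnamed cells and 43.7% of those of PITX1+ wound 2 in immune-like cells, which were 50.6% of its cells. Most of the former lay in an unnamed cluster with a median of 15 transcripts per cell.

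Ptch1 was again higher near Shh cells in each wound. Fibroblast-like cells within 50 µm held 0.553, 0.667 and 1.49 Ptch1 transcripts per cell in the Control wound, PITX1+ wound 1 and PITX1+ wound 2, and those farther away 0.0708, 0.0497 and 0.0520. Keratinocyte-like cells held 0.726, 0.751 and 2.22 near and 0.165, 0.0867 and 0.0424 farther away. The near values of PITX1+ wound 2 rest on 71 and 97 cells around 13 Shh cells.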

How the data were processed

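Transcripts were imaged with a custom Xenium panel on 4 slides, each deposited by the authors as instrument output. The deposited table of transcripts gives the gene, position in µm, cell and quality score of each decoded transcript, and the deposited table of cells gives counts per cell. Software version and segmentation settings are not given in the sources used here. Decoded transcripts were kept from a quality score of 20 upwards and summed by cell, which equalled the deposited counts in 100% of cells on every slide. Sections were found by chaining cells within 100 µm (200 µm for the wounded slide) and keeping chains of 2000 or more cells, numbered by rising mean position. Control was the first section of each slide of 3 skin sections and the first 2 of the slide of 4.

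Cells with at least 10 transcripts were grouped by k-means (45 clusters, 40 principal components) without the members and Pitx1. A cluster took the name with the most fixed markers among its 10 leading genes, given at least 3 markers raised 1.5-fold in at least 10% of cells. It stayed unnamed where another class led. That conflict rule was set after the clusters were seen. Doublets were not called, since cells were segmented in place. Counts were summed per section and class (at least 50 cells) and tested with edgeR 4.0.16 in R 4.3.3 (quasi-likelihood, TMM, filterByExpr, Benjamini-Hochberg over the panel genes tested, threshold 0.05). The fit was also run on simulated counts. These had a fixed dispersion and no slide effect, so they give no error rate for the spread between the sections here. Log2 differences without another tool named are edgeR's. The SE beside such a difference was derived as its absolute value divided by the square root of the test's F statistic. DESeq2 1.42.0, other filters and left-out sections were alternatives. Single values were compared by exact permutation tests over sections. P-values measure the spread between sections, and intervals cover counting error only. The members and gene lists were chosen with earlier results of these data known, and named genes were the members, the members of the lists, the 5 most alike by each measure and Pitx1. Genes leading a cluster or a ratio, and Krt5, were named after their values were seen or as background. A further panel gene of the pathway is not reported here. Cell and nucleus outlines were not used.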

Additional observations from a re-analysis of the deposited data

Results flagged for a closer look

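Of 48 groups of sections examined, 3 held a section far from the others by Dixon's test, which flags about 1 group in 20 by chance. PITX1+ 1 had 0.412 Shh foci per mm2, and the nearest of the other PITX1+ sections had 2.85. In PITX1+ skin, Ptch1 in muscle and pericyte-like cells was highest in 1 section at 3536 CPM, with the next at 1505 CPM. In that section, PITX1+ 2, 1 cluster of the class held 201 of its 267 Ptch1 transcripts, at 10201 CPM. The same cluster was at 3779, 7977 and 7003 CPM in PITX1+ 1, 3 and 4. Among the buccal sections, Buccal 3 had the highest share of cells with Shh, 0.367% (9 of 2449 cells), and the next had 0.0599%.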

How the results depend on the processing

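Over 142 alternatives to 22 results, leaving out a section aside, 123 kept the direction and the side of the threshold, or for a count stayed within 1.5 times. The shares and foci of PITX1+ against Control have a smallest possible p of 0.0571 (exact permutation test). The near and far ratios over 4 sections have one of 0.125 (sign-flip test). Such alternatives could change direction but not the side of the threshold, so their place among the 123 is partly set in advance. Adjusted p-values are edgeR's unless DESeq2 is named, and the cause of a change was not tested. Without the slide covariate, the log2 difference between PITX1+ and Control was 1.61 for Ptch1 and 3.03 for Shh over whole sections, 2.09 for Ptch1 in fibroblast-like cells, each no longer past the threshold. With 30 and 60 clusters, fibroblast-like Ptch1 was at 1.34 and 2.23, no longer past it, and 30 clusters turned the buccal difference to 0.0587. The buccal minus Control share of cells turned to 0.000173 points for Shh from 2 transcripts a cell, and to -1.30 (thinned cells) and -0.120 points (nuclear transcripts) for Ptch1. The follicle lists' called genes, 9 in keratinocyte-like cells, were 4 without the slide covariate. In fibroblast-like cells, 5 became 8 by DESeq2, 0 without the slide covariate, 1 with 30 or 60 clusters, 3 with no gene filter, no cell filter, nuclear transcripts or any quality score, and 9 with dermal papilla-like cells. These list counts and that last class were alternatives chosen after seeing the data.

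Leaving out each section in turn gave ranges of 1.40 to 2.19 (whole section), 1.53 to 2.34 (keratinocyte-like) and 1.46 to 2.58 (fibroblast-like) for Ptch1, and 2.32 to 4.00 (whole section) and 3.32 to 4.51 (keratinocyte-like) for Shh. Calls were lost in 5, 3, 4, 2 and 1 of 7 cases. For the buccal comparison the Shh range was -4.96 to -3.24, lost without Control 1 (adjusted p = 0.0676). The buccal share difference ran from -0.765 to -0.285 points for Shh and from -0.545 to 2.15 points for Ptch1, the latter reversed without Control 3. Without a Control section, too few sections remain for the exact permutation test to pass the threshold. Its failure to pass there for Shh was thus set in advance. List counts ran from 3 to 11 and from 1 to 6.

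The number of genes called between PITX1+ and Control fell from 67 to 8 over whole sections and from 106 to 33 in keratinocyte-like cells without the slide covariate, and rose from 106 to 165 by DESeq2. Of 21 in fibroblast-like cells, DESeq2 gave 42, no slide covariate 0, any quality score 12, 30 clusters 5, 60 clusters 9 and added dermal papilla-like cells 45. In the buccal fibroblast-like comparison DESeq2 gave 162 against 95. Without 1 section the counts ran from 13 to 85, from 32 to 123 and from 5 to 33. In the buccal comparison they ran from 74 (without Control 1) to 178 (without Buccal 3) over whole sections, from 199 to 238 in keratinocyte-like and from 59 (without Control 2) to 167 (without Control 3) in fibroblast-like cells. No paired analysis was possible because the labels number no sections across groups, so sections could not be matched 1 to 1. The slide, which Control and PITX1+ share, is in the edgeR fit, and the permutation tests leave it out.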
